A study of Mus musculus with 4 samples.

Results

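The genes described here are those of amino acid breakdown and the urea cycle in mouse liver, a list of 53 enzymes grouped by what they catalyse. The list was drawn up with earlier results of these data known, so that counts over it are descriptions. Of the 53, 48 had a probe set that named them alone, and all 48 were among the 10350 genes tested. Gls2, Acmsd, Sds, Sdsl and Amt were not analysed here, and Mut was measured under its present symbol, Mmut. RNA came from non-tumorous liver of 30-week-old male mice on a C57BL/6 background, all given 25 mg/kg of the carcinogen diethylnitrosamine (DEN) at day 15 of age and then 22 weekly injections of 0.5 ml/kg of the hepatotoxin carbon tetrachloride (CCl4). The 2 G9aKO mice were Alb-Cre; G9aflox/flox and the 2 WT mice were Alb-Cre; G9a+/+, so that every animal carried Cre and had received both agents. Cre was driven by the albumin promoter, to remove the histone methyltransferase G9a, encoded by Ehmt2, from hepatocytes. The paper found residual G9a protein in whole liver and ascribed it, as probable, to cells other than hepatocytes. Each mouse had 1 Affymetrix mouse expression array. The comparison asked how the liver's amino acid enzymes differed between injured livers with and without hepatocyte G9a.

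The liver is the main site of amino acid breakdown. Aminotransferases and dehydrogenases strip nitrogen from the carbon skeletons, the urea cycle turns that nitrogen into urea, and dedicated pathways in mitochondria, peroxisomes and cytosol burn the skeletons or turn them into glucose, ketone bodies and cofactors. Most of these enzymes are abundant in hepatocytes, and many are most abundant near the portal vein.

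In G9aKO livers 3 of the 48 genes had fallen and 0 had risen at an adjusted p under 0.05 by limma. The 3 that fell were Kyat3, at 22.0% of its WT level, Grhpr, at 42.8%, and Etnppl, at 46.7%; their products handle kynurenine, glyoxylate and phosphoethanolamine. In whole liver RNA, fewer cells of a type and less RNA per cell cannot be told apart. Over all genes tested the same rule called 7 lower, which is 0.0676%, and 33 higher, which is 0.319%. Most other enzymes had small differences. The median log2 fold change over the 48 genes was -0.12, beside 0.02 over all genes tested, and 33 of the 48 lay below 0 (68.8%, beside 46.6% of all genes).

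The sequences just upstream of the 3 genes that fell are shown because their RNAs moved the same way. Each is the 250 bases before the annotated start, 5′ to 3′, from RefSeq on build GRCm38.p6, all on the plus strand, with CpG dinucleotides in capitals. The windows are chr3:142700798-142701047 for Kyat3, chr4:44981144-44981393 for Grhpr and chr3:130617198-130617447 for Etnppl, which has 2 annotated starts, the first of them used.
Kyat3: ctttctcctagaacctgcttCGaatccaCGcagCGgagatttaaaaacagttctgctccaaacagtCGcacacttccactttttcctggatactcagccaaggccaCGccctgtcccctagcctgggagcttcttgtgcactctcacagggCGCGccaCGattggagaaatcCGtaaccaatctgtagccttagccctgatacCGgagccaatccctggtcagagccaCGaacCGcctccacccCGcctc
Grhpr: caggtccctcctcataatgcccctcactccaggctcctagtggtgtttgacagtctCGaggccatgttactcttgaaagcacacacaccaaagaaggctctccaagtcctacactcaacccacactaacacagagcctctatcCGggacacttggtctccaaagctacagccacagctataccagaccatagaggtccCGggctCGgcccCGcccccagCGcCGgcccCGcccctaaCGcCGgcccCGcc
Etnppl: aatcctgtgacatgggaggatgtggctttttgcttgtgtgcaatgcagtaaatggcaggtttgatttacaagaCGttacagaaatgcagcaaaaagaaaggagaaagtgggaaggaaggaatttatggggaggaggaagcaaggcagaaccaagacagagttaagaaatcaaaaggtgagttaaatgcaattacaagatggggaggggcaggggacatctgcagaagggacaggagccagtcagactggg
The Kyat3 window held 13 CpGs at a GC content of 56.0% and the Grhpr window 11 CpGs at 60.4%. That of Etnppl held 1 CpG at 46.0%. Over 32851 RefSeq promoter windows of the same length the median was 6 CpGs (quartiles 2 and 16) and a GC content of 52.4%, and over the 39 listed genes with a window it was 8 CpGs (quartiles 3.5 and 14.5) and 56.0%. Kyat3 and Grhpr thus lay within the quartiles of CpG number of all promoters and Etnppl below them. None of 6 motifs, searched on both strands, was found in the 3 windows: TATAAA (in 12.4% of all promoters), CACGTG (6.02%), TGACGTCA (1.55%), CAAAGTCCA (0.384%), TTGCGCAA (0.164%) and TGATGCAA (0.791%).

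The signal is the MAS5 intensity, a linear value in arbitrary units that the authors scaled so that each array had a trimmed mean of 500.0, and values of different probe sets cannot be set against each other. Probe sets called Absent had a median signal of 29.5 to 31.6 and a 95% quantile of 171 to 181, and all 48 genes were called Present on all 4 arrays at the probe set tested. Ehmt2 itself gave 174.1 and 163.7 in G9aKO livers, both Absent, and 640.4 and 492.5 in WT livers, both Present. Its signal was thus 3.33-fold lower in G9aKO, which did not pass the threshold (fitted log2 fold change -1.73, SE 0.23, adjusted p = 0.063). Its second probe set was called Absent throughout, and whether either lies in the deleted exons was not determined here. With 2 mice per genotype an exact two-sided permutation test cannot go below p = 0.33, so that p-values here are from limma, which pools the spread over genes.

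Kyat3, a kynurenine aminotransferase that makes kynurenic acid and also splits cysteine conjugates, had signals of 2711 and 2081 in G9aKO livers, against 12879 and 9043 in WT livers. The groups stood far apart, with the higher G9aKO array below the lower WT array. The means were 2396 ± 446 in G9aKO and 10961 ± 2712 in WT (SD, n = 2 each), with a log2 fold change of -2.18 and a standard error (SE) of 0.21 (adjusted p = 0.0311). By size of decrease Kyat3 was number 7 of the 10350 genes.

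Grhpr reduces glyoxylate to glycolate and hydroxypyruvate to glycerate, and its loss in humans causes a primary hyperoxaluria. Its signal was 5104 and 4646 in G9aKO livers, against 12383 and 10455 in WT livers, again without overlap. Means of 4875 ± 324 in G9aKO and 11419 ± 1363 in WT (SD, n = 2 each) gave a difference of -1.22 on the log2 scale (SE 0.13, adjusted p = 0.0361).

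Etnppl breaks phosphoethanolamine into ammonia, phosphate and acetaldehyde. It gave 5075 and 6098 in G9aKO livers, against 12051 and 11757 in WT livers, both G9aKO arrays lying well below both WT arrays. The log2 fold change was -1.10 (SE 0.13, adjusted p = 0.0374), with means of 5586 ± 723 in G9aKO and 11904 ± 208 in WT (SD, n = 2 each). A second, dimmer probe set of Etnppl read 206.7 and 586.2 in G9aKO livers and 1299 and 854.0 in WT livers, a log2 fold change of -1.60 without overlap. Kyat3 and Grhpr each had 1 probe set.

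These 3 calls rested on few animals and on the model. All 3 were lost without limma's mean-variance trend (adjusted p of 0.167 for Kyat3, 0.224 for Grhpr and 0.274 for Etnppl) and by the methods' t-test (adjusted p of 0.53 each). With no detection filter Grhpr (adjusted p of 0.054) and Etnppl (0.0557) were lost and Kyat3 (0.0462) was not. Without the first WT array none of the 3 passed (adjusted p of 0.117 for Kyat3, 0.188 for Grhpr and 0.25 for Etnppl). Without the second WT array none did either (adjusted p of 0.0751 for Kyat3, 0.102 for Grhpr and 0.187 for Etnppl). Without the first G9aKO array Kyat3 alone passed, with adjusted p of 0.0175, and Grhpr had 0.0501 and Etnppl 0.071. Without the second G9aKO array all 3 passed. All 3 stayed below 0: over the 4 omissions the log2 fold change ran from -2.44 to -1.93 for Kyat3, from -1.35 to -1.10 for Grhpr and from -1.23 to -0.97 for Etnppl.

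**Figure D1:**
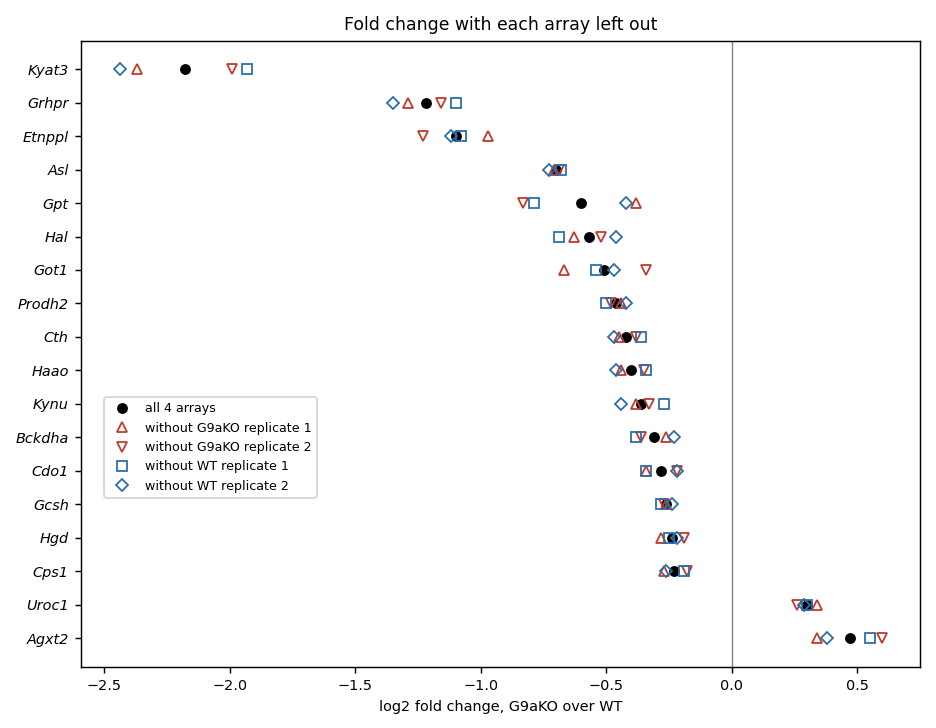
Log2 fold change (G9aKO minus WT, horizontal axis) with all 4 arrays (black) and after leaving out each G9aKO array (red triangles) or WT array (blue squares and diamonds), for the 18 genes with an unadjusted p under 0.05 and no overlap. All 18 stayed on their side of 0, with Kyat3 between -2.44 and -1.93.

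The other genes with an unadjusted limma p under 0.05 did not pass the adjusted threshold and are given as values. At that looser rule 16 of the 48 genes were lower in G9aKO, which is 33.3%, beside 4.1% of all genes tested, and 2 were higher, which is 4.17%, beside 5.92%. The groups did not overlap, with G9aKO lower, for 22 of the 48 (45.8%, beside 19.3% of all genes), and with G9aKO higher for 5 (10.4%, beside 22.3%). The listed genes were also measured more tightly than most, with a median standard error of 0.12 beside 0.20 over all genes tested, so that smaller differences reached a given p. In the middle of the listed genes' own range, between mean log2 signals of 12.19 and 14.56 (their quartiles, a range added after the data were seen), the 24 listed genes had a median log2 fold change of -0.18 and the 906 other genes one of -0.06, with 70.8% of the listed and 63.4% of the others below 0. In that range, 9 listed genes (37.5%) and 92 others (10.2%) were lower in G9aKO at an unadjusted p under 0.05, and 13 listed genes (54.2%) and 289 others (31.9%) were lower without overlap. The median and counts over all genes therefore differ from those of genes as bright as the listed ones, and the part of signal level in the shift was not tested.

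**Figure D2:**
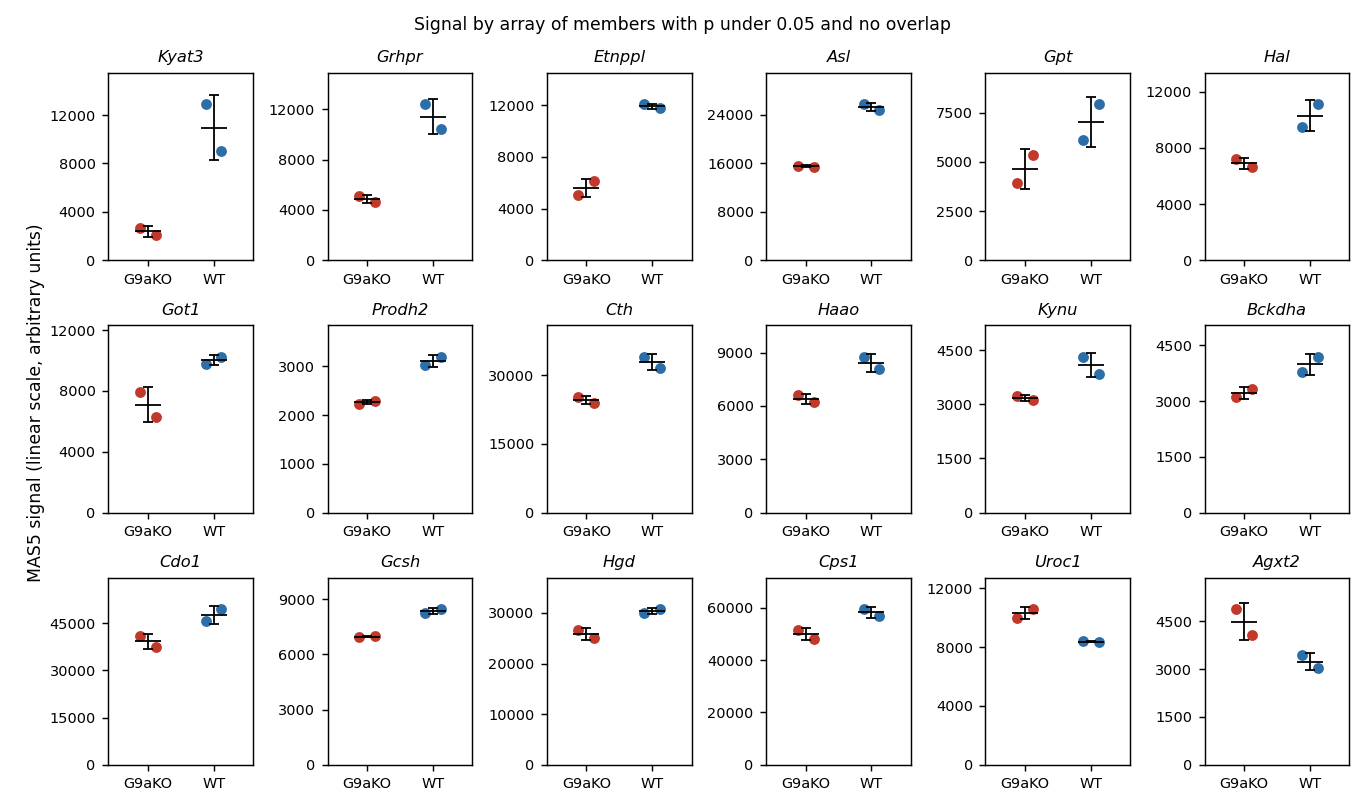
MAS5 signal (linear scale, arbitrary units, each panel from 0) on every array for the 18 genes whose groups did not overlap at an unadjusted p under 0.05; each point is 1 mouse, and the lines are the mean ± SD of 2 mice, G9aKO left and WT right. In 16 panels both G9aKO points lie below both WT points, most widely for Kyat3, and in those of Uroc1 and Agxt2 they lie above.

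In the urea cycle, all 6 enzymes were measured, none passed, and the median log2 fold change was -0.12, with 4 below 0 and 2 above. Asl, which splits argininosuccinate into arginine and fumarate, came nearest, with 15585 and 15390 in G9aKO livers, against 25676 and 24791 in WT livers. The pairs were tight and far apart: 15487 ± 138 in G9aKO and 25234 ± 626 in WT (SD, n = 2 each), or 61.4% of WT, with a difference of -0.70 on the log2 scale (SE 0.09, adjusted p = 0.063). Asl was number 42 of 10350 by p. Of the alternatives that kept all 4 arrays, only centring each array on its own median took it past the threshold (adjusted p = 0.0402). Its adjusted p was 0.314 without limma's mean-variance trend, 0.129 with no detection filter and 0.491 by the methods' t-test. With 1 array left out its log2 fold change ran from -0.73 to -0.68.

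Cps1, which makes carbamoyl phosphate from ammonia at the entry of the cycle, gave 51412 and 48136 in G9aKO livers, against 59553 and 56780.0 in WT livers, a log2 difference of -0.23 (SE 0.09, adjusted p = 0.494). Otc, which joins carbamoyl phosphate to ornithine, gave 20179 and 17989 in G9aKO livers, against 23842 and 21294 in WT livers. Its groups did not overlap (log2 fold change -0.24, SE 0.11), and its other detected probe sets had -0.67 and -0.19. The probe set with -0.67 was near background, with 144.1 and 135.2 in G9aKO livers and 165.6 and 298.4 in WT livers. Arg1, which releases urea, was level: 52963 and 53431 in G9aKO livers and 52595.0 and 54960.1 in WT livers, a log2 difference of -0.015 (SE 0.08).

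Nags, whose product N-acetylglutamate switches Cps1 on, read 1599 and 1455 in G9aKO livers, against 1373 and 1237 in WT livers (log2 fold change 0.23, SE 0.14), without overlap. Ass1, which makes argininosuccinate from citrulline and aspartate, varied more within each genotype than between them, with 823.6 and 1480.1 in G9aKO livers and 668.7 and 1460.0 in WT livers (log2 fold change 0.16). Its standard error of 0.43 was the widest of the cycle, and with 1 array left out its log2 fold change ran from -0.40 to 0.72.

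**Figure D3:**
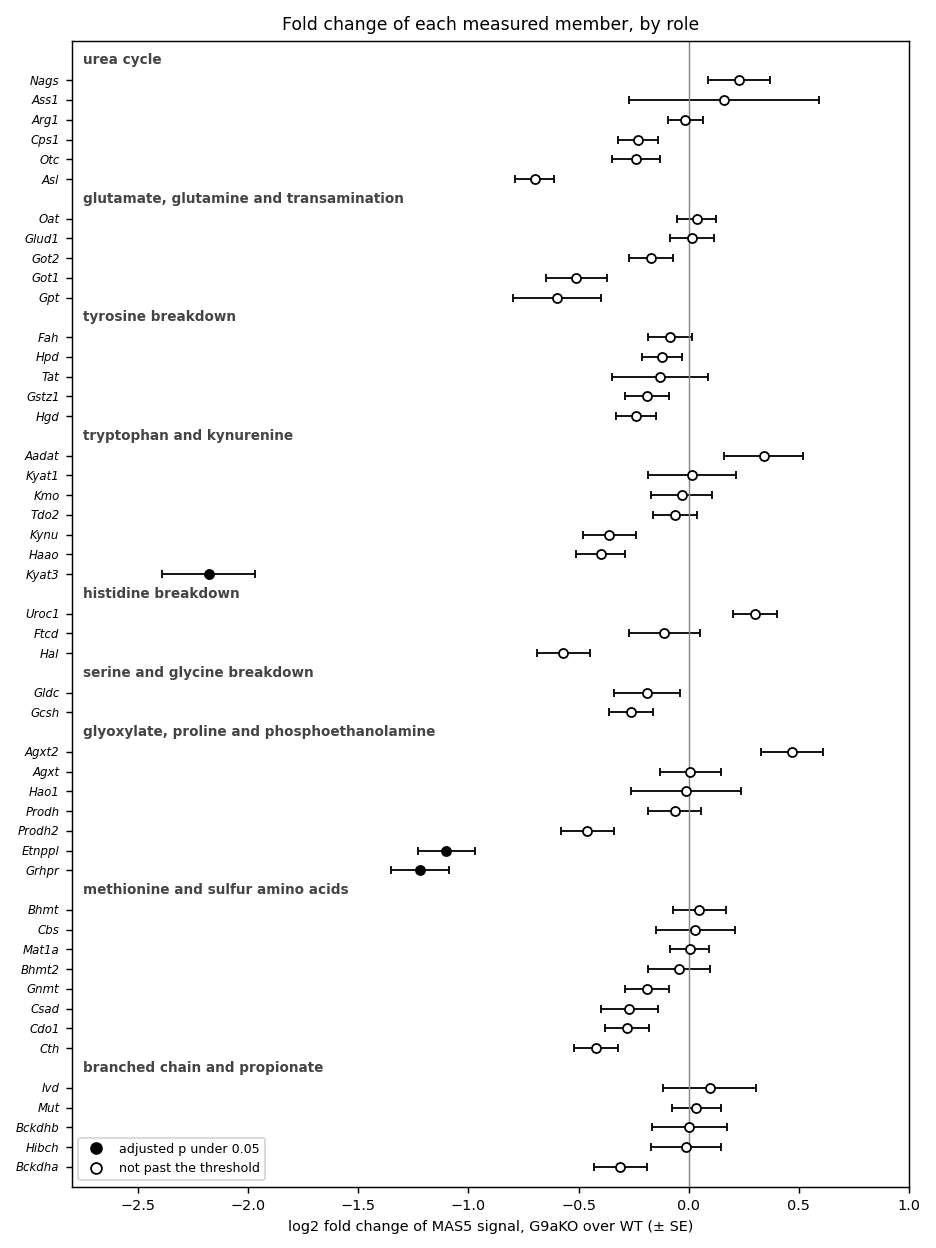
Log2 fold change (G9aKO minus WT, horizontal axis) of the 48 genes tested, grouped by role, with standard errors from limma; filled points are genes past the adjusted threshold and open points are not. Kyat3 at -2.18, Grhpr at -1.22 and Etnppl at -1.10 stand apart on the left, and the others lie between -0.70 and 0.47.

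Among the enzymes of glutamate and transamination, 5 were measured and 0 passed, with a median log2 fold change of -0.17. Gpt, the cytosolic alanine aminotransferase used in blood as a marker of liver injury, had 3918 and 5371 in G9aKO livers, against 6141 and 7924 in WT livers. The groups were separate, though each spread widely (log2 fold change -0.60, SE 0.20, adjusted p = 0.409), and a dimmer probe set had 0.15, on the other side of 0. Got1, the cytosolic aspartate aminotransferase, had 7918 and 6284.5 in G9aKO livers, against 9777 and 10251 in WT livers, also without overlap (log2 fold change -0.51, SE 0.14, adjusted p = 0.32). Its mitochondrial counterpart Got2 gave 17600.0 and 19179 in G9aKO livers and 20257 and 21127 in WT livers (log2 fold change -0.17, SE 0.10), and its 3 dimmer probe sets all lay above 0, at 0.21, 0.065 and, near background on every array, 1.25. Glud1, which frees ammonia from glutamate, had overlapping groups of 24078 and 23728 in G9aKO livers and 25199 and 22225.5 in WT livers (0.014). A second probe set of Glud1 was at -0.082 without overlap. Oat, which links ornithine to glutamate semialdehyde, was at 0.036.

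Tyrosine is broken down in a straight line of 5 enzymes, from Tat through Hpd, Hgd and Gstz1 to Fah. All 5 lay below 0 with all 4 arrays, with a median log2 fold change of -0.13, and 0 passed. Without the second WT array Tat turned to 0.21. The clearest was Hgd, which opens the ring of homogentisate, with 26651.5 and 25005 in G9aKO livers, against 30002 and 30801 in WT livers (log2 fold change -0.24, SE 0.09, adjusted p = 0.484). Hpd, which makes homogentisate, gave 55787 and 52017 in G9aKO livers, against 59296 and 58069 in WT livers, with no overlap but a log2 difference of only -0.12 (SE 0.09). Gstz1, the maleylacetoacetate isomerase, had -0.19 and Fah, the last enzyme, -0.083. Tat, whose transcription responds to glucocorticoids and glucagon, overlapped, with 25487 and 27911 in G9aKO livers and 22992.5 and 37168 in WT livers (-0.13, SE 0.22).

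Of the enzymes of tryptophan and kynurenine, 7 were measured, and Kyat3 was the 1 that passed. Tdo2, which opens the indole ring in the first step of the pathway, had overlapping groups, with 63633 and 55953 in G9aKO livers and 62841 and 61618 in WT livers (log2 fold change -0.061, SE 0.10). Its dimmer probe sets were at 0.0037 and 0.19, also with overlapping groups. Further down, Kynu, which splits kynurenine and hydroxykynurenine, gave 3240.0 and 3127 in G9aKO livers, against 4320.3 and 3841 in WT livers. Those groups did not overlap (log2 fold change -0.36, SE 0.12, adjusted p = 0.431). A second probe set of Kynu had -0.56, with every signal below the 95% quantile of Absent probe sets. Haao, which opens the ring of hydroxyanthranilate on the way to NAD, gave 6588 and 6195 in G9aKO livers, against 8772 and 8075 in WT livers (log2 fold change -0.40, SE 0.11, adjusted p = 0.32), likewise without overlap. Kmo, the kynurenine hydroxylase, was at -0.032.

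Enzymes that can transaminate kynurenine besides Kyat3 include Kyat1 and Aadat, and Got2 is also known to do so. Kyat1 had overlapping groups, with 1340.5 and 1748 in G9aKO livers and 1713.5 and 1335 in WT livers, and its 4 probe sets ran from -0.056 to 0.34. Aadat had 9665 and 6899.6 in G9aKO livers, against 6817 and 6123 in WT livers, a log2 difference of 0.34 (SE 0.18) whose groups nearly touched. The differences between these genes and Kyat3 were not tested.

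Histidine breakdown held values on both sides of 0. Hal, which removes ammonia from histidine to give urocanate, had 7189 and 6625 in G9aKO livers, against 9510.5 and 11097 in WT livers (log2 fold change -0.57, SE 0.12, adjusted p = 0.198). Uroc1, the urocanase that takes the next step, lay the other way, with 10004 and 10594 in G9aKO livers, against 8391 and 8352 in WT livers (log2 fold change 0.30, SE 0.10, adjusted p = 0.423). At these probe sets neither gene's groups overlapped, and neither passed. A second, dimmer probe set of Uroc1 was at 0.21 with overlapping groups. Ftcd, which hands the formimino group to folate, was at -0.11 with overlapping groups.

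The serine and glycine enzymes left to measure were Gcsh and Gldc, parts of the mitochondrial glycine cleavage system. Gcsh, the lipoyl carrier protein, had 6944 and 6983 in G9aKO livers, against 8229 and 8483 in WT livers (log2 fold change -0.26, SE 0.10, adjusted p = 0.48). Its values were close within each genotype and did not overlap. For Gldc, the decarboxylase, the groups overlapped at -0.19.

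Grhpr and Etnppl belong to the enzymes of glyoxylate, proline and phosphoethanolamine, all 7 of which were measured. Prodh2, the hydroxyproline dehydrogenase that feeds carbon toward glyoxylate, had 2232 and 2291 in G9aKO livers, against 3019 and 3198 in WT livers, tight pairs that did not overlap (log2 fold change -0.46, SE 0.12, adjusted p = 0.297). Agxt2, a mitochondrial aminotransferase that uses glyoxylate and also degrades dimethylarginine, lay highest of the 48 genes at 0.47 (SE 0.14, adjusted p = 0.371), with 4888.5 and 4079 in G9aKO livers, against 3425 and 3049 in WT livers. Agxt, the alanine glyoxylate aminotransferase of mouse peroxisomes and mitochondria, was level at 0.0083. Hao1, the peroxisomal glycolate oxidase that makes glyoxylate, had a log2 difference of -0.013 (SE 0.25), with 11370.0 and 11886 in G9aKO livers lying between the WT values of 15408 and 8927. Prodh, the proline dehydrogenase, was at -0.064. The enzymes around glyoxylate therefore did not share a direction.

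Methionine and sulfur enzymes numbered 8, all measured, with 0 past the threshold and a median log2 fold change of -0.12. Cth, which makes cysteine from cystathionine, had 25235 and 24038 in G9aKO livers, against 34088 and 31639 in WT livers (log2 fold change -0.42, SE 0.10, adjusted p = 0.23). Cdo1, the cysteine dioxygenase, had 40906 and 37512 in G9aKO livers, against 45619 and 49519 in WT livers (log2 fold change -0.28, SE 0.10, adjusted p = 0.434). Csad, which carries cysteine sulfinate on to hypotaurine, had 11505 and 13321 in G9aKO livers, against 16052 and 13834 in WT livers (-0.27, SE 0.13). In each of these 3 genes the groups did not overlap.

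Mat1a, which makes S-adenosylmethionine, the methyl donor that G9a itself uses, gave 46509.9 and 43791 in G9aKO livers and 43164 and 46895 in WT livers (log2 fold change 0.0044, SE 0.09). Gnmt, which consumes S-adenosylmethionine by methylating glycine, gave 45208 and 40844 in G9aKO livers, against 50872 and 47254 in WT livers, without overlap (-0.19, SE 0.10). Bhmt, which remakes methionine with betaine, overlapped at 78299.9 and 70513 in G9aKO livers and 65359 and 79056.5 in WT livers (0.048), and Bhmt2 was at -0.043, with a second probe set at -0.27 without overlap. Cbs, which makes cystathionine, was at 0.031 with overlapping groups, and its second probe set was at -0.45 without overlap.

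The 5 enzymes of branched chain amino acids and propionate had a median log2 fold change of 0.0. Bckdha, a subunit of the branched chain keto acid dehydrogenase, had 3112 and 3334 in G9aKO livers, against 3789.6 and 4195 in WT livers (log2 fold change -0.31, SE 0.12, adjusted p = 0.495). Bckdhb, its partner subunit, was at 0.0019 with overlapping groups. Mut, the methylmalonyl-CoA mutase, was close on all arrays, with 5506 and 5600.0 in G9aKO livers and 5405 and 5438 in WT livers (0.035). Ivd, of leucine breakdown, was at 0.095 and Hibch, of valine breakdown, at -0.012.

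Probe sets of 1 gene did not always point the same way. Of 70 probe sets for the 48 genes, 68 were Present on at least 2 arrays, and 14 genes had several of these. In 7 of the 14 they lay on 1 side of 0 and in 7 they did not. On chromosome 17, which also carries Ehmt2, lie Haao at -0.40, Gnmt at -0.19, Cbs at 0.031 and Mut at 0.035.

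On single arrays, the median deviation of the 48 genes from their own mean log2 signal was -0.068 and -0.079 in G9aKO livers and 0.082 and 0.115 in WT livers, with a pooled SD within genotypes of 0.017. Both G9aKO arrays thus lay below both WT arrays, and the median log2 fold change depended on scaling, from -0.05 with quantile normalization to -0.18 with arrays centred on their median.

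**Figure D4:**
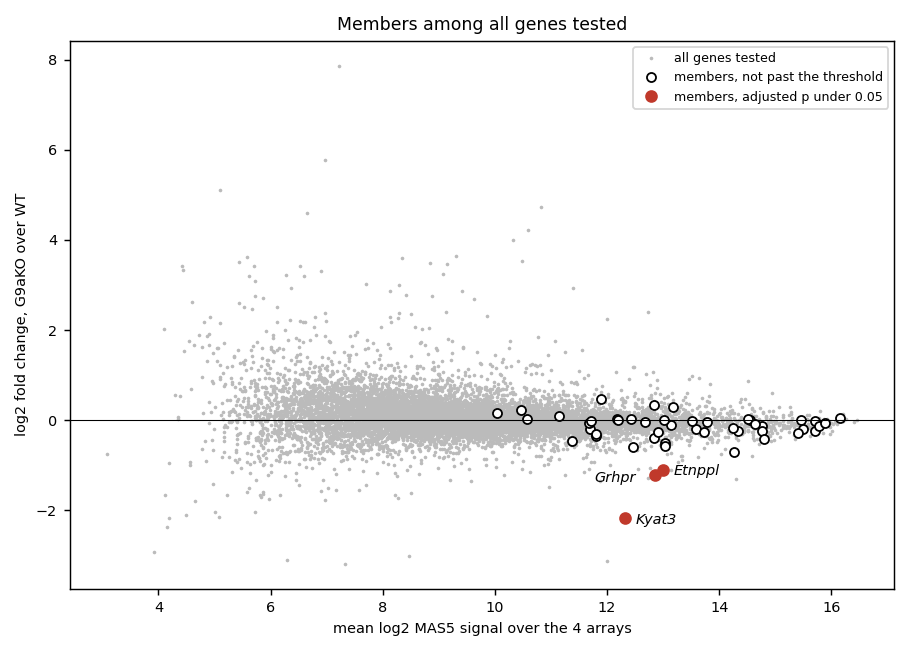
Log2 fold change (G9aKO minus WT) against mean log2 signal for the 10350 genes tested (grey dots) and the 48 genes of amino acid breakdown, red points for the 3 past the adjusted threshold and open circles for the rest. The 48 lie at high signals and mostly just below 0, with Kyat3, Grhpr and Etnppl below the rest.

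A further 56 genes of amino acid breakdown, outside the list, were read from the same comparison. Of the 51 tested, 0 passed the adjusted threshold in either direction. At an unadjusted limma p under 0.05, 9 were lower in G9aKO (17.6%, beside 4.1% of all genes tested). At the same rule 3 of the 51 were higher, beside 5.92% of all genes. The groups did not overlap, with G9aKO lower, for 18 (35.3%, beside 19.3%), and with G9aKO higher for 8 of the 51, beside 22.3% of all genes. The median log2 fold change was -0.04, with 32 below 0 (62.7%, beside 46.6% of all genes).

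The 9 hepatocyte markers tested, of 10, had a median log2 fold change of -0.04, and their summed signal was 572020 and 507157 in G9aKO livers and 576797 and 537542 in WT livers. All 9 macrophage markers tested, of 10, lay above 0 (median 0.46), and so did all 9 stellate cell markers tested, of 10 (median 0.55), with 0 past the threshold. Of all 10350 genes tested, 5528 lay above 0. Without overlap, G9aKO was higher for 3 of the 9 macrophage markers and 6 of the 9 stellate cell markers, beside 22.3% of all genes. It was lower without overlap for 0 in either list, beside 19.3% of all genes. The summed signals of both lists overlapped: 62121 and 40103 in G9aKO and 27892 and 42155 in WT for macrophages, and 22066 and 13922.5 in G9aKO and 11843.5 and 16585 in WT for stellate cells. Of the cholangiocyte markers, Krt19, Krt7, Epcam and Cftr were not detected, and the 2 tested, of 8, had a median of 1.34. Their summed signal did not overlap, with 738.0 and 435.6 in G9aKO and 247.8 and 204.0 in WT. The 7 endothelial markers tested, of 8, had a median of 0.05, with 3 below 0. The 1 T and NK cell marker tested, of 8, was at -0.46. Medians were 0.02 for the 4 B and plasma cell markers tested, of 6, and 0.15 for the 2 neutrophil markers tested, of 6. The part of other cell types in the differences above was not tested.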

How the data were processed

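Expression was measured on 1 Affymetrix array for each of 2 G9aKO and 2 WT livers, grouped by the submitters' genotype labels. Per the submitters' processing notes, the authors used MAS5, with no version given. Each deposited signal is a linear intensity, background-corrected and scaled within its array. A detection p-value and call per probe set were deposited by the authors too, and the series matrix held the same signals within a relative difference of 5e-06. No batch, date or pairing is given. Precision is limited by there being 2 arrays per genotype.

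Of 45101 probe sets, 34945 named 1 gene; 64 controls, 932 naming several genes and 9160 naming none were left out. Symbols were checked against RefSeq, and 0 changed. A gene was represented by its brightest probe set Present on at least 2 arrays. Log2 signals, without pseudocount, were compared with limma 3.58.1 in R 4.3.3 (lmFit, then eBayes with its mean-variance trend, 2 residual and 4.02 prior degrees of freedom), with Benjamini-Hochberg adjustment over 10350 genes and a threshold of 0.05. The code was tested on simulated data. The genes, roles and lists were chosen with earlier results of these data known. Tests are given for listed genes past the threshold and those with an unadjusted p under 0.05 and groups that did not overlap. The brightest gene of each role was also named by rule. Where it met neither condition it is given by its values, in some cases with a standard error. The others are given by their values, with standard errors where these were added after the values were seen. Alternatives changed the trend, scaling, probe set, detection filter, pseudocount, test, source of values and arrays used; the alternative test was the methods' t-test.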

Additional observations from a re-analysis of the deposited data

How the results depend on the processing

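Of the 13 alternatives, those that leave out an array have 1 residual degree of freedom and assume that a lone array varies like the others. In all, 40 genes passed, and 3 of the listed genes were lower. Without the mean-variance trend, 0 genes passed limma's test (unadjusted, 645 higher and 318 lower at p under 0.05) and 0 listed genes were lower (9 unadjusted). The methods' t-test also gave 0 and 0 after adjustment (449 higher and 406 lower unadjusted, 10 listed genes lower). With no detection filter 15 genes passed and 1 listed gene was lower, Kyat3; with Present on all 4 arrays 26 passed. Leaving out 1 array gave 8 to 71 genes and 0 to 3 listed genes lower: 8 and 0 without either WT array, 15 and 1 without the first G9aKO array, 71 and 3 without the second. No alternative called a listed gene higher.

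The median log2 fold change of -0.12 became -0.05 with quantile normalization, -0.18 with arrays centred on their median and -0.17 to -0.15 with 1 array left out. Of the 48 listed genes, 7 changed sign with quantile normalization, 9 with centring and 4 to 11 with 1 array left out. Among those named by rule these were Tdo2 (0.016) and Hao1 (0.055) with quantile normalization, and Glud1 (-0.048), Bhmt (-0.015) and Mut (-0.028) with centring. With 1 array left out, Hao1 ran from -0.41 to 0.38, Bhmt from -0.089 to 0.19, Glud1 from -0.076 to 0.10 and Tdo2 from -0.15 to 0.032; outside that rule, Ass1 ran from -0.40 to 0.72, Tat from -0.48 to 0.21, Ivd from -0.20 to 0.39 and Cbs from -0.21 to 0.27. The cause was not tested. Of 312 values of 24 named genes under the alternatives, 284 kept direction and side of the threshold. Most of these genes had not passed in the main fit, so that they had no call to lose. The 16 values that lost the threshold all belonged to Kyat3, Grhpr and Etnppl. No paired analysis was possible because the labels give the groups no shared replicate numbers.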

Other observations

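Within each genotype, the array with the lower Ass1 signal was also the one with the lower summed signal of 10 core clock genes: that sum was 12015 and 25119 in G9aKO livers and 12459 and 23840.0 in WT livers, beside Ass1 at 823.6 and 1480.1 in G9aKO and 668.7 and 1460.0 in WT. Tat was also higher on the second array of each genotype, at 25487 and 27911 in G9aKO and 22992.5 and 37168 in WT. So were other listed genes, among them Got2, Gpt and Ftcd, while Cps1, Otc and Grhpr were lower on it in both genotypes. How many of all genes share either order was not counted. The hour at which livers were taken is not stated, and its part in these values was not tested. The 8 tested genes of a fasting and glucagon response list summed to 114760 and 90785 in G9aKO livers and 85050.5 and 98418 in WT livers, with 0 past the threshold.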
